A study of Mus musculus with 16 samples.

Results

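Protocadherins are cell surface proteins of the cadherin superfamily. Their genes were taken as every row of the count table whose symbol begins with Pcdh followed by a, b, g or a digit, which gave 70 of 24539 genes. Of these, 58 lie in the 3 neighbouring clusters on chromosome 18 (14 alpha, 22 beta and 22 gamma genes) and 12 are non-clustered. The non-clustered genes fall into the delta-1 group (Pcdh1, Pcdh7, Pcdh9, Pcdh11x), the delta-2 group (Pcdh8, Pcdh10, Pcdh17, Pcdh18, Pcdh19) and 3 others (Pcdh12, Pcdh15, Pcdh20).

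In the alpha and gamma clusters each variable exon has its own promoter and is spliced to constant exons shared by the whole cluster, whereas each beta gene is a single exon. CTCF and cohesin loop distant enhancers to a few of these promoters, so that single neurons express different combinations, and the proteins bind matching copies on other cells and support self-avoidance. The C-type genes at the ends of the alpha and gamma clusters are known to be switched on more uniformly. Non-clustered delta protocadherins are expressed by cell type or region and act in adhesion, axon growth and migration, and PCDH19 is the gene of an X-linked epilepsy.

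RNA was sequenced from laser-captured GFP-positive cells picked at the front of migration in the cortical plate of PFA-fixed CD1 embryos at embryonic day 14.5. All embryos carried GAD67-GFP+/-, a reporter that marks GABAergic cells, in all 4 groups alike. Each group had 4 libraries of about 1000 cells, each from a single embryo labelled male, with 1 embryo per litter. Unexposed dams received corn oil without restraint. Cypermethrin-alone dams received alpha-cypermethrin, a pyrethroid insecticide, at 10 mg/kg by gavage on gestational days 11 to 14. Stress-alone dams received corn oil and restraint under bright light on days 12 and 13, in 3 sessions of 45 min per day. A final restraint followed on day 14. Dams of the both-exposures group received cypermethrin and restraint. Gavage itself was common to all 4 groups.

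Libraries held between 2291283 and 4324129 counts, and protocadherin genes took 0.166% to 0.225% of them. Interneuron markers were present in every library (Lhx6 at 171.5 to 347.2 CPM, counts scaled to library size), but so were those of glutamatergic neurons (Neurod6 at 978 to 2180 CPM) and Cajal-Retzius cells (Reln at 1588 to 2987 CPM). The part of RNA from such cells in the results was not tested. The library labelled stress-alone 1 goes against its male label, with 9521 Xist counts against at most 26 in the other 15 libraries and 1 count over 4 Y-linked genes against 555 to 1477. In such bulk samples, fewer cells of a type and less RNA per cell cannot be told apart.

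Of the 70 genes, 66 had at least 1 count and 65 passed the filter on low counts. The 5 left untested were Pcdha1, with 25 counts over 8 libraries, and Pcdha4, Pcdha6, Pcdha7 and Pcdhb1, which were at 0 in all 16 libraries. A count of 0 allows up to 3 counts, or 0.0532 CPM over the 16 libraries together, and covers counting error only. For the 3 alpha genes at 0, RefSeq lists a second model starting at the same base and running to the end of the gamma cluster: Gm37013 (13 counts), Gm38666 (45 counts) and Gm38667 (17 counts). How reads were divided between these models is not given in the sources used here, so a 0 for Pcdha4, Pcdha6 or Pcdha7 does not show that its promoter was silent. The lowest genes that passed the filter were the beta genes Pcdhb12 (1.58 ± 1.74 CPM, SD, n = 16), Pcdhb9 (2.86 ± 2.67 CPM) and Pcdhb5 (2.88 ± 3.09 CPM).

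The shared exons bear on every level given here. By the GENCODE annotation of GRCm38, a median of 46.4% of an alpha gene's exonic bases and 54.7% of a gamma gene's belonged to no other gene, against 100% for beta genes. Reads in the constant exons cannot be assigned to 1 gene, so alpha and gamma counts may hold mainly the variable exons. Levels are therefore given per kilobase of all exonic bases, and the order within the alpha and gamma clusters also per kilobase of bases shared with no other gene of the table (unshared bases).

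RefSeq promoter windows (GRCm38.p6) were at hand for 9 of the 12 non-clustered genes, and the 250 bases before them are shown for the 2 most abundant members and, beside them, for the member with the fewest CG pairs. Capitals mark each CG, the dinucleotide that DNA methylation acts on, read 5′ to 3′ on the gene's strand.
Pcdh9 (chr14:93890680-93890929, minus strand): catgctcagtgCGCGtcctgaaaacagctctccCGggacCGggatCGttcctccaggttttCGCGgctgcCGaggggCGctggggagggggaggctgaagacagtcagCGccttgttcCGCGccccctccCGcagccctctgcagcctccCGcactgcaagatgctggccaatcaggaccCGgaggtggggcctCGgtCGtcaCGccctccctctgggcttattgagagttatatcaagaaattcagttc
Pcdh19 (chrX:133688994-133689243, minus strand): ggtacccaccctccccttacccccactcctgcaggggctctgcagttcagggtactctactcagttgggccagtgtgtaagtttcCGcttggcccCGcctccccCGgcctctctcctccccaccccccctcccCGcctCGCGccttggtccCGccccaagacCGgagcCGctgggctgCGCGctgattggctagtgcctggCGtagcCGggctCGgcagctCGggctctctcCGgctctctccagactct
Pcdh20 (chr14:88471397-88471646, minus strand): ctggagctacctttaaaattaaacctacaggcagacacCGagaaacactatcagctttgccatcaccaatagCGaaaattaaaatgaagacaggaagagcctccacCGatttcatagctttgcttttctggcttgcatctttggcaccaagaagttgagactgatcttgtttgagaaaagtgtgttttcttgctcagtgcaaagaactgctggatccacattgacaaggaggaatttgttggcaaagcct
The Pcdh9 window holds 18 CG, as many or more than which stand in 21.6% of 27025 windows of the same length. Pcdh19 holds 16 CG, a number reached by 25.6% of windows, and Pcdh20 holds 3, reached by 70.4%. Over the 9 genes the CG count ran from 3 to 23 with its highest value in Pcdh18, which was not the most abundant member, and the median of all windows was 6. These counts describe the windows only, since methylation was not measured.

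Pcdh9 and Pcdh19 had the highest levels of all protocadherin genes in these libraries, in CPM and per kilobase of all exonic bases. The RNA of these libraries also held markers of other neurons. Per kilobase of bases that no other annotated gene shares, the gamma gene Pcdhgc3 (38.5) stood above Pcdh19 (28.3) and below Pcdh9 (39.6). Pcdh9, a delta-1 protocadherin of the developing cortex (chr14:93013410-93890679), stood at 39.6 ± 10.9 CPM per kilobase (SD, n = 16) and was the highest non-clustered gene in 14 of 16 libraries. Pcdh19, a delta-2 protocadherin that forms adhesion complexes with N-cadherin (chrX:133582860-133688987), stood at 28.2 ± 5.18 and led in the other 2. This order rests on division by length: in CPM, Pcdh19 had the higher mean, at 295 ± 54.2 against 268 ± 74.1 for Pcdh9. Together they supplied a median of 29.5% of all protocadherin CPM (24.6% to 36.4%). Pcdh19 also varied least of all members, with a coefficient of variation of 18.4%.

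In unexposed libraries 1 to 4, Pcdh9 was at 258, 196, 235 and 212 CPM and Pcdh19 at 331, 237, 273 and 283 CPM. After these, Pcdh7 (delta-1, which binds a protein phosphatase) followed at 11.7 ± 4.14 CPM per kilobase and Pcdh18 (delta-2) at 7.48 ± 2.45. Pcdh8, an activity-regulated delta-2 protocadherin also called arcadlin, stood at 7.15 ± 4.12, and Pcdh1 at 6.94 ± 2.53. The next delta genes were Pcdh10, a delta-2 gene of axon growth, at 5.13 ± 1.73, Pcdh17 at 4.19 ± 1.16 and Pcdh11x at 4.19 ± 2.65. Of the 3 others, Pcdh20 stood at 5.05 ± 3.25, the endothelial protocadherin Pcdh12 at 2.90 ± 2.55, and Pcdh15, a tip-link protein of hair cells, at 0.73 ± 0.67. All 12 non-clustered genes had counts in all 16 libraries. Neighbours in this order, per kilobase of all exonic bases, mostly did not differ beyond their spread. Among the 66 genes with a count, only the step from Pcdh19 to Pcdhgc3, the next gene, exceeded the sum of the 2 SDs. Per kilobase of unshared bases that step was smaller, with Pcdh19 at 28.2 and Pcdhgc3 at 20.7. It was not set against the SDs on that length.

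**Figure D1:**
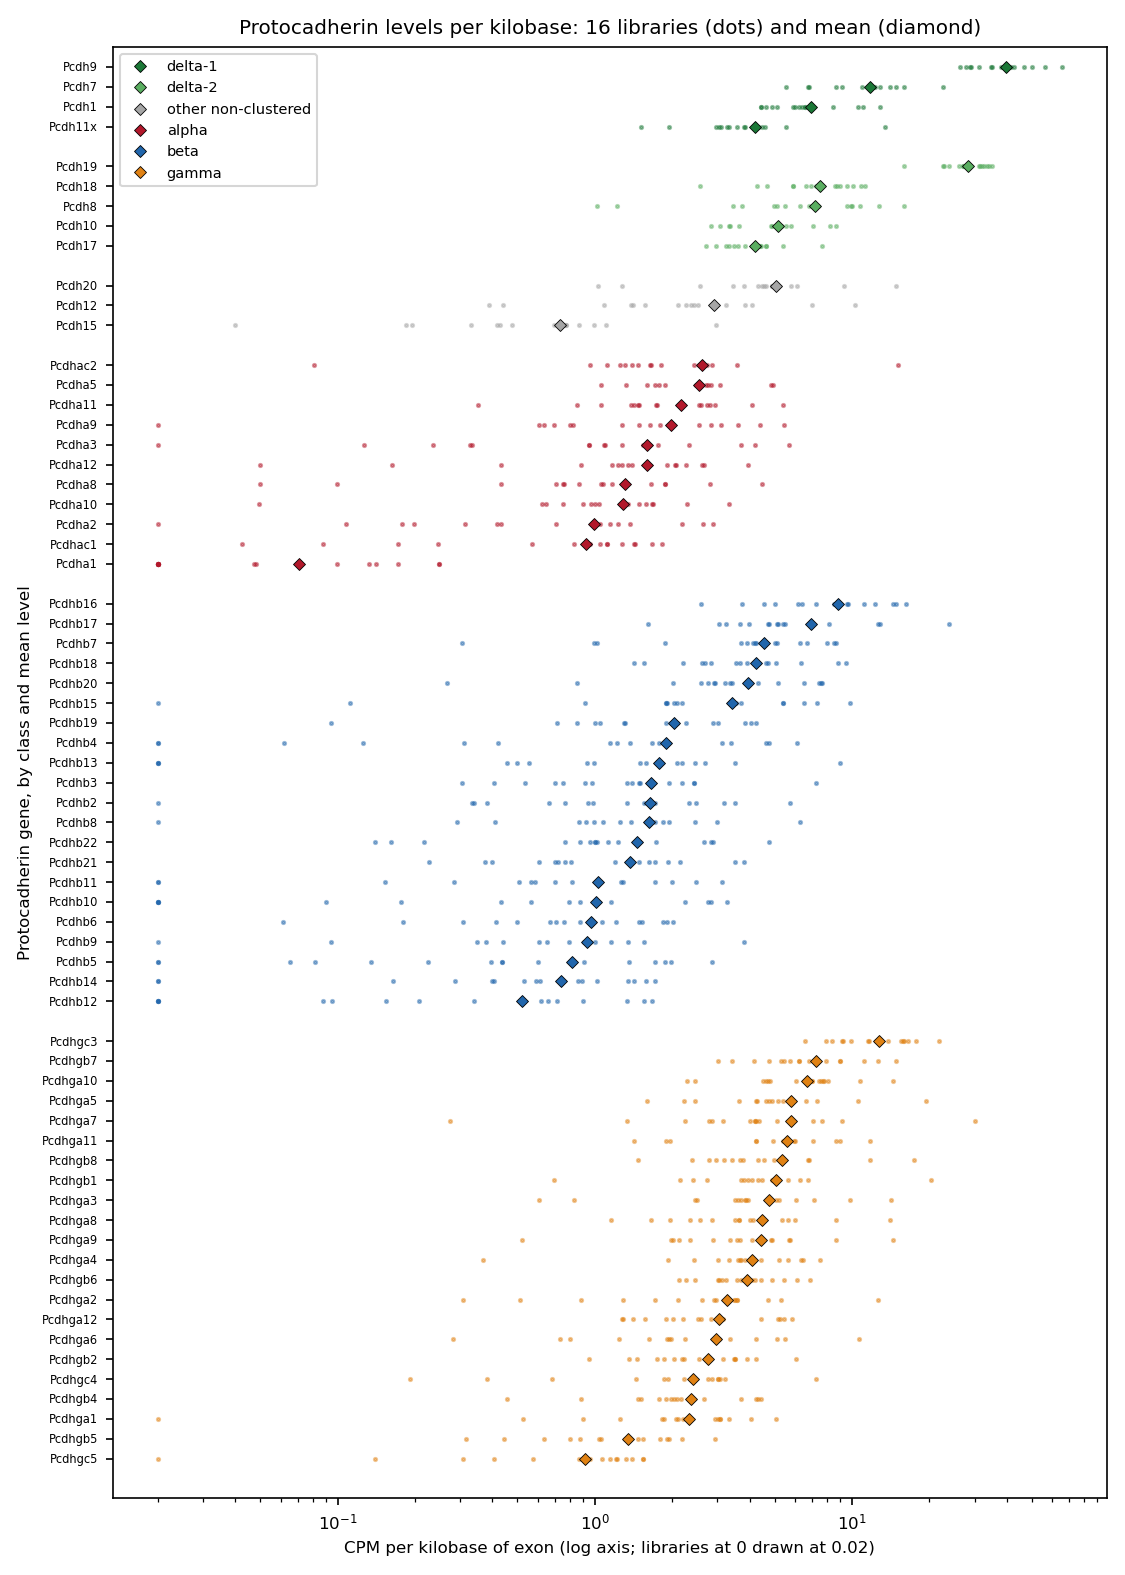
Level of each of the 66 protocadherin genes with a count, in CPM per kilobase of all exonic bases on a log axis, by class. Dots are the 16 libraries (a library at 0 is drawn at 0.02) and diamonds the mean. Pcdh9 (39.6) and Pcdh19 (28.2) stand to the right of all others, and the dots of alpha and beta genes spread more widely around the mean than those of the delta genes.

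Among the clustered genes the gamma C-type gene Pcdhgc3 was the highest, at 12.8 ± 4.22 CPM per kilobase and 36.0 to 120 CPM with a median of 66.2. It was the highest gamma gene in 11 of 16 libraries, and in 8 when only unshared bases counted. The other C-type genes were much lower: Pcdhac2 stood at 2.62 ± 3.44, Pcdhgc4 at 2.42 ± 1.61, Pcdhac1 at 0.92 ± 0.56 and Pcdhgc5 at 0.91 ± 0.49 CPM per kilobase. Pcdhac2 owed its SD to a single library, stress-alone 3, at 89.0 CPM, where the other 15 libraries lay at 20.9 CPM or below. Among the A and B types, Pcdhgb7 (7.23 ± 3.36), Pcdhga10 (6.71 ± 3.03), Pcdhga5 (5.81 ± 4.23) and Pcdhga7 (5.80 ± 6.87) came next. Per kilobase of unshared bases this order changed: Pcdhgc3 (20.7) was followed by Pcdhgb7 (13.1), Pcdhga4 (12.3), Pcdhga10 (12.2) and Pcdhgb1 (11.2), and Pcdhga4 led the cluster in 3 libraries. On that length these gamma genes also stood above Pcdhb16, the highest beta gene. The 12 A-type genes had a median level of 4.44 CPM per kilobase and the 7 B-type genes 3.91, with overlapping ranges (2.33 to 6.71 and 1.35 to 7.23).

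The beta cluster was led by Pcdhb16 and Pcdhb17, and not by the genes nearest its 3′ end, Pcdhb21 (1.37 CPM per kilobase) and Pcdhb22 (1.46). Pcdhb16 stood at 8.82 ± 4.12 CPM per kilobase and Pcdhb17 at 6.91 ± 5.48, followed by Pcdhb7 (4.54 ± 2.64), Pcdhb18 (4.23 ± 2.33) and Pcdhb20 (3.93 ± 2.32). The 7 genes from Pcdhb16 to Pcdhb22 had a median of 3.93 CPM per kilobase (1.37 to 8.82), and the 14 from Pcdhb2 to Pcdhb15 a median of 1.33 (0.52 to 4.54). This division was made after the values were seen. Pcdhb16 led the cluster in 8 libraries, Pcdhb17 in 4, Pcdhb20 in 2, and Pcdhb18 and Pcdhb2 in 1 each.

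Per kilobase of all exonic bases alpha genes were the lowest of the 3 clusters, and no alpha gene led in most libraries. The 5 highest were Pcdhac2 at 2.62, Pcdha5 at 2.54 ± 1.09, Pcdha11 at 2.16 ± 1.28, Pcdha9 at 1.98 ± 1.54 and Pcdha3 at 1.60 ± 1.62 CPM per kilobase. Pcdha9 led in 5 libraries, Pcdha5 in 3, and Pcdha11, Pcdha12, Pcdha3 and Pcdhac2 in 2 each. Per kilobase of unshared bases Pcdha5 (5.64) stood above Pcdhac2 (5.09) and Pcdha9 (4.26), and Pcdha9 led in 6 libraries, Pcdha5 in 4 and Pcdha11 in 1. Pcdha9 ranged from 0 in stress-alone 1 to 29.0 CPM in cypermethrin-alone 4.

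Within every library the 3 clusters kept 1 order in summed CPM: gamma above beta above alpha in 16 of 16. Summed gamma CPM was 499 ± 88.4 (SD, n = 16), beta 225 ± 54.9 and alpha 97.1 ± 32.2, so gamma supplied a median of 59.3% of clustered CPM, beta 27.6% and alpha 12.9%. As means per gene and per kilobase of all exonic bases, gamma stood at 4.43, beta at 2.33 and alpha at 1.22 CPM. Counting only bases shared with no other gene of the table, gamma remained above beta in 16 of 16 libraries (median ratio 3.16), but beta was above alpha in 6 of 16 (median ratio 0.95). The order of beta and alpha per gene thus rests on how the shared exons are counted. Non-clustered genes together exceeded clustered genes in all 16 libraries, with 1078 ± 125 against 821 ± 109 summed CPM.

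A sum over many genes varies less than its members by construction, so the following spreads of sums and of single genes are a description. The summed CPM had a coefficient of variation of 17.7% for gamma, 24.5% for beta and 33.1% for alpha, whereas the median over single genes was 71.3% for gamma A type, 50.6% for gamma B type, 84.9% for beta and 77.7% for alpha other than C type. Of the 66 genes with counts, 49 had a count in every library, beside 10425 of the 18733 genes with counts in the whole table. Clustered genes had a median level of 11.5 CPM, against 56.4 CPM for non-clustered genes. The 17 members at 0 in some library were all clustered: 11 beta, 4 alpha and 2 gamma. In 15 of these 17 another library held at least 30 counts. Pcdhb13, for example, ranged from 0 to 94 counts and Pcdhb4 from 0 to 71. The library labelled stress-alone 1 had 8 of the 66 at 0, the most of any library. It held 2410165 counts and the fewest genes with a count, 12153. Cypermethrin-alone 3, with 4091668 counts and 13527 genes with a count, had 4. Libraries with 4 members at 0 had counts for 13158 to 13868 genes, and those with 2 or 0 for 14220 to 16536. The part of gene detection in the zeros was not tested.

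edgeR's biological coefficient of variation, the replicate spread left after counting noise, had a median of 0.68 over the 65 tested members against 0.52 over all genes tested. The members' median level was 14.0 CPM, against 26.3 over all genes tested. Against edgeR's trend at their own level, 35 of 65 members (53.8%) lay above it, against 39.1% of all genes: 14 of 21 beta, 11 of 22 gamma, 4 of 10 alpha and 6 of 12 non-clustered genes. Values ran from 0.23 for Pcdh19 to 1.25 for Pcdhb12.

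**Figure D2:**
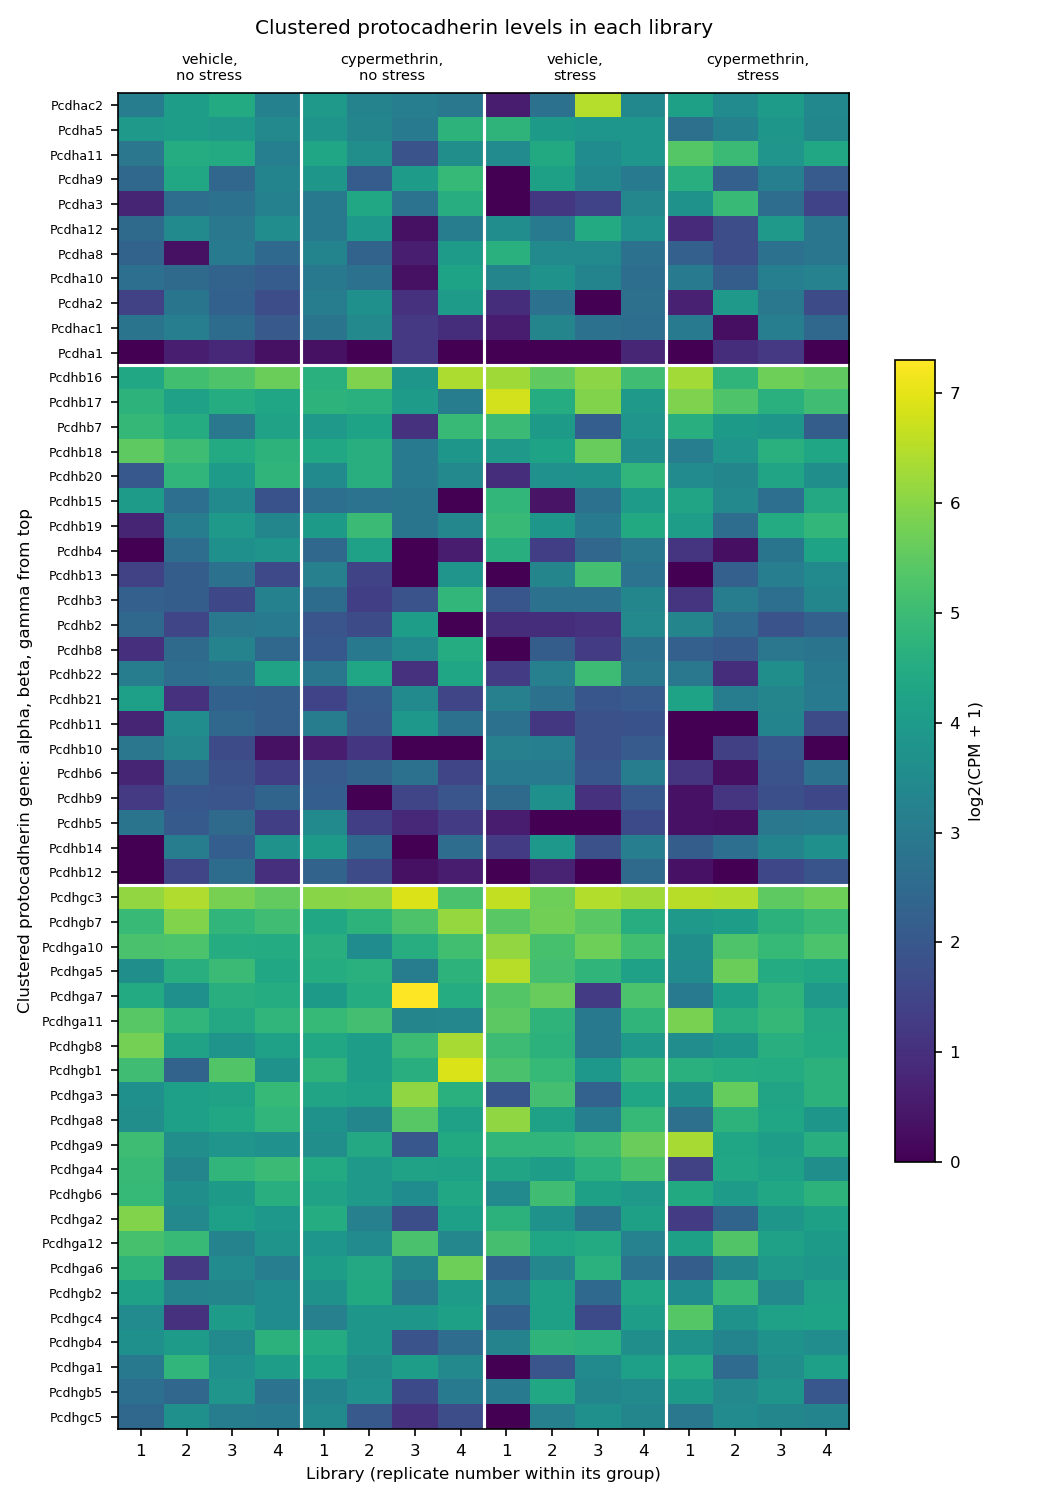
Level of the 54 clustered protocadherin genes with a count (rows; alpha, beta and gamma from the top, each ordered by level per kilobase) in the 16 libraries (columns, by exposure group), as log2(CPM + 1). Pcdhgc3 is high in all columns, whereas single bright cells such as Pcdhga7 in cypermethrin-alone 3 (157 CPM) and Pcdhac2 in stress-alone 3 (89.0 CPM) belong to 1 library. Dark cells of a beta gene can recur over libraries: Pcdhb10 and Pcdhb12 each had a count in 12 of the 16, and Pcdhb13 in 13.

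The exposure groups overlapped in the summed level of 5 of the 6 classes, the exception being delta-2. Gamma sums were 468 ± 77.4 CPM in unexposed, 522 ± 126 in cypermethrin-alone, 542 ± 95.8 in stress-alone and 464 ± 42.9 in both-exposures libraries (SD, n = 4 each). Beta sums were 206 ± 18.8, 204 ± 64.1, 264 ± 71.3 and 225 ± 48.8 CPM, and alpha sums 81.2 ± 24.2, 98.4 ± 44.1, 110 ± 40.7 and 98.5 ± 20.1 CPM, in the same order. Delta-1 sums were 517 ± 102, 538 ± 127, 549 ± 146 and 446 ± 71.3 CPM. Delta-2 sums were 471 ± 21.9, 483 ± 97.4, 537 ± 70.0 and 522 ± 25.2 CPM. The unexposed delta-2 sums (440.4 to 490.2 CPM) lay below all 4 both-exposures sums (502 to 559 CPM), and every other pair of groups overlapped in that class. The overlap of stress-alone sums with these 2 groups rests on the library labelled stress-alone 1, at 433 CPM: the other 3 stress-alone libraries, at 565 to 586 CPM, lay above all unexposed and both-exposures libraries. The delta-2 case was the only non-overlap over all pairs of groups in the 6 classes. Among all genes tested, 2.62% did not overlap between unexposed and both-exposures libraries. Pcdh19 alone supplied 44.7% to 67.4% of the delta-2 sum of a library. Sums of the 3 other non-clustered genes were 52.0 ± 4.03, 79.6 ± 23.0, 69.2 ± 32.2 and 50.4 ± 6.44 CPM. Cypermethrin-alone libraries had the largest SD of the 4 groups in the alpha, gamma and delta-2 classes.

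**Figure D3:**
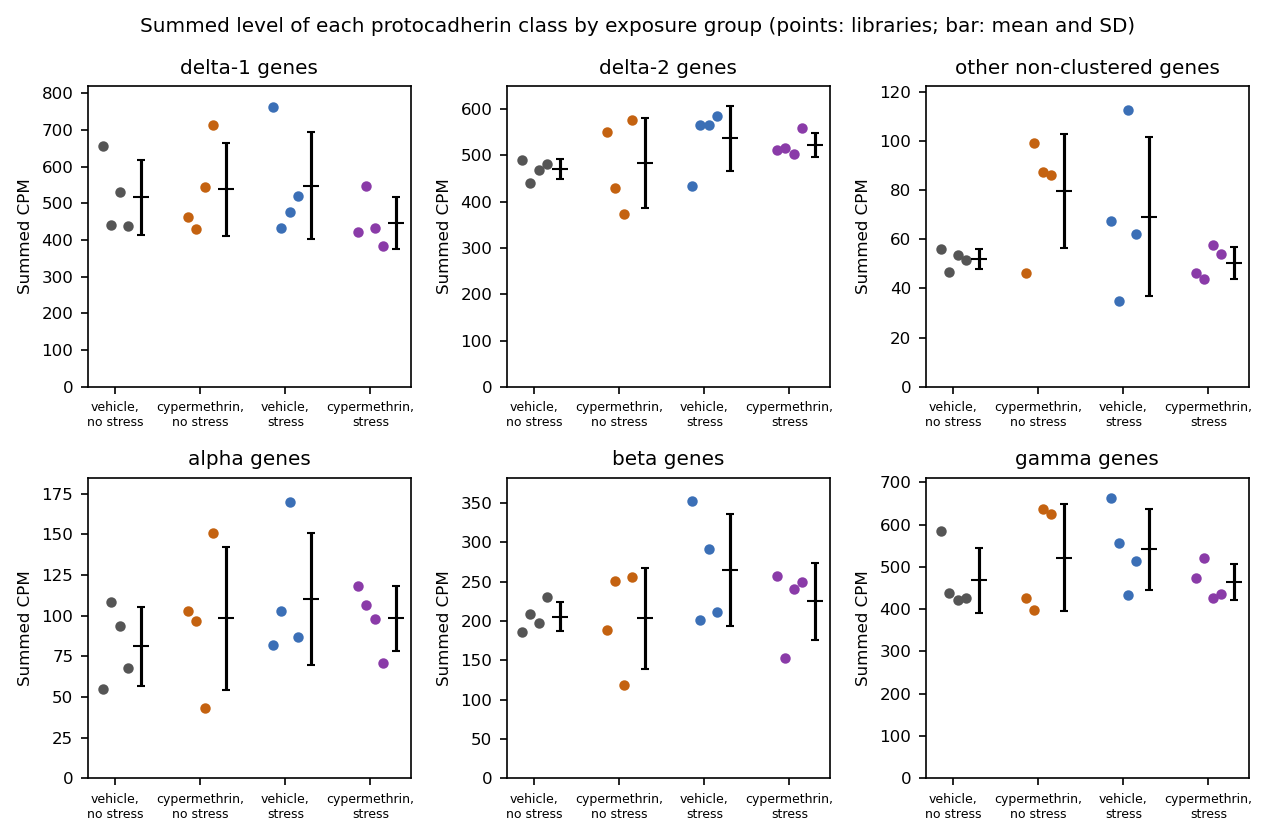
Summed CPM of each of the 6 protocadherin classes in every library, by exposure group (points, 4 libraries each; bars, mean and SD; axes start at 0). Unexposed libraries lie below both-exposures libraries in the delta-2 panel, where stress-alone libraries overlap both groups only through stress-alone 1 (433 CPM), all other pairs of groups overlap, and cypermethrin-alone libraries spread widely in the alpha panel (43.0 to 151 CPM).

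The first comparison asks what cypermethrin did in embryos of unrestrained dams. With edgeR's quasi-likelihood test and Benjamini-Hochberg adjustment, 0 of 65 members passed an adjusted p of 0.05, as did 0 of 13224 genes (0%). At an unadjusted p under 0.05 there were 3 members, beside 3.71% of all genes, and DESeq2 also called 0 members with 3 at that level, limma voom 0 with 0. Fitted values were higher in 32 members and lower in 33, with a median log2 difference of -0.02 against 0.03 over all genes, and no member's groups failed to overlap, beside 2.52% of genes. Medians were 0.35 for alpha, -0.16 for beta and -0.03 for gamma genes.

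The 3 members with the smallest unadjusted p were Pcdh12, Pcdhb10 and Pcdhga7. Pcdh12 was at 12.8, 2.67, 14.4 and 8.49 CPM in unexposed and 6.56, 62.3, 42.5 and 8.41 CPM in cypermethrin-alone libraries 1 to 4, so that 2 of 4 were high, for a log2 difference of 1.64 ± 0.73 (SE; edgeR adjusted p = 0.999), and 1.00 without cypermethrin-alone 2. Summed endothelial markers were 245, 272, 520 and 127 CPM in these 4 libraries, so library 3 was high in both and library 2 in Pcdh12 alone; their part in the result was not tested. Pcdhb10 was at 6.40, 9.35, 2.27 and 0.257 CPM in unexposed libraries and 0.504, 1.23, 0 and 0 in cypermethrin-alone libraries, a log2 difference of -3.25 ± 1.47 (edgeR adjusted p = 0.999) that rests on at most 35 counts in any library. Its highest cypermethrin-alone value lay above the lowest unexposed one.

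Pcdhga7 was at 20.9, 11.8, 22.7 and 22.1 CPM in unexposed and 14.9, 21.9, 157 and 22.0 CPM in cypermethrin-alone libraries. Only cypermethrin-alone 3 was outside the unexposed range on the high side, and the log2 difference of 1.48 ± 0.71 (edgeR adjusted p = 0.999) became 0.02 without it. Pcdh9 was at 290, 238, 276 and 444 CPM in cypermethrin-alone libraries, 3 of which lay above the unexposed maximum of 258, a log2 difference of 0.47 ± 0.23, and 0.26 without cypermethrin-alone 4. Glutamatergic marker genes moved beside it: 8 of 10 had fitted values above 0 (median log2 difference 0.25), their sums were 5464 to 6538 CPM against 4677 to 5501 CPM in unexposed libraries, and cypermethrin-alone 4 had the 6538 CPM. Their part in the result was not tested. Pcdh7 was at 239, 150, 157 and 116 CPM in unexposed and 71.6, 92.2, 170 and 127 CPM in cypermethrin-alone libraries, a log2 difference of -0.53 ± 0.31, and -0.29 without unexposed 1. Neither of these passed even the unadjusted threshold.

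**Figure D4:**
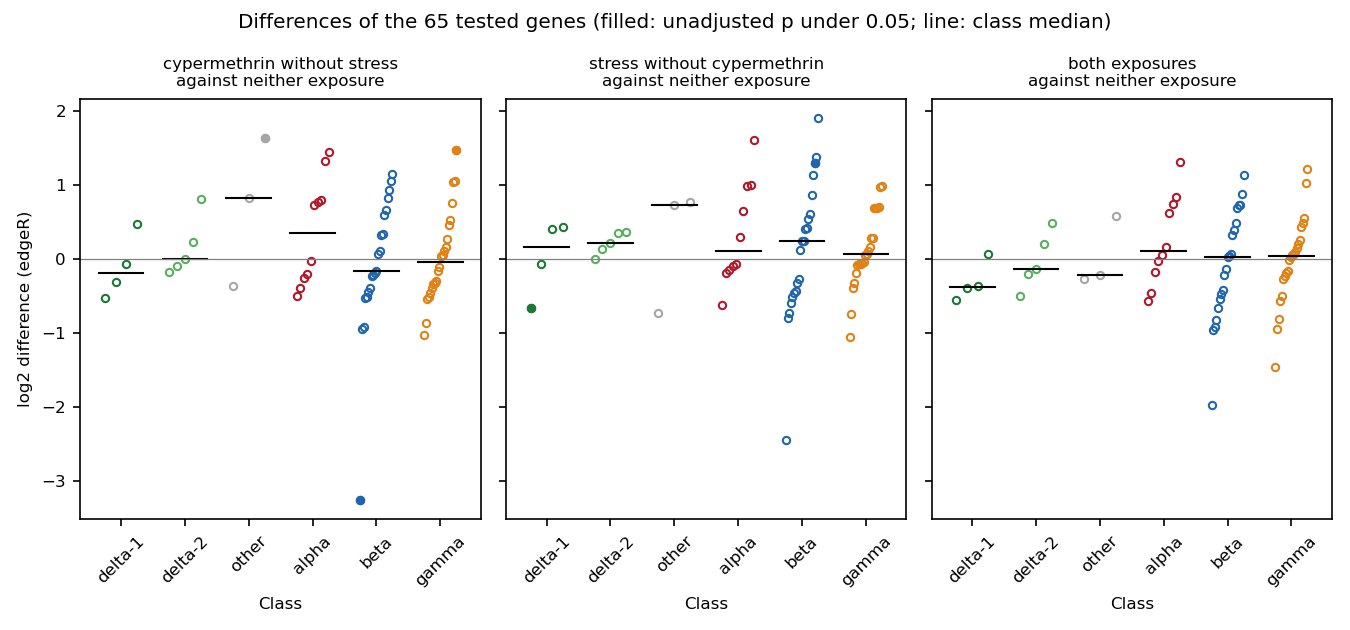
log2 differences from unexposed libraries for the 65 tested protocadherin genes, by class, in the cypermethrin-alone, stress-alone and both-exposures comparisons, which share the 4 unexposed libraries. Filled circles have an unadjusted edgeR p under 0.05 and none passed the adjusted threshold; lines are class medians. Clustered genes scatter on both sides of 0 in all panels.

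The comparison of stress-alone with unexposed libraries addresses restraint without the insecticide. No member was called (0 of 65, and 0% of all genes). At an unadjusted p under 0.05 edgeR found 2 members, beside 5.08% of all genes, as did DESeq2 and limma voom. Fitted values were higher in 38 members and lower in 27 (median 0.14 against 0.01 over all genes), and groups overlapped for every member, beside 2.90% of genes whose groups did not. All 5 delta-2 genes had fitted values above 0 (0.005 to 0.37), none of which passed a test.

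Pcdhb17 was at 25.6, 17.1, 22.2 and 18.5 CPM in unexposed and 111, 21.9, 59.8 and 14.1 CPM in stress-alone libraries. Only 2 of the 4 stress-alone libraries lay above the unexposed range, and the log2 difference of 1.30 ± 0.53 (edgeR adjusted p = 0.965) became 0.61 without the library labelled stress-alone 1. Pcdh7 was at 97.0, 136, 58.8 and 128 CPM in stress-alone libraries, a log2 difference of -0.66 ± 0.31 (edgeR adjusted p = 0.965) that became -0.42 without unexposed 1, and unexposed library 4 at 116 CPM lay within that range. Pcdh9 was at 380, 197, 342 and 281 CPM, with 3 of 4 above the unexposed maximum, a log2 difference of 0.41 ± 0.23 (unadjusted p = 0.0831 in edgeR).

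The 2 X-linked members were read with and without the library whose sex genes go against its label. Pcdh11x was at 45.5, 53.7, 77.2 and 53.0 CPM in unexposed and 187, 43.2, 21.0 and 60.3 CPM in stress-alone libraries, the 187 CPM being that library and the highest of all 16. The stress-alone mean was 77.9 ± 74.5 CPM with it and 41.5 ± 19.7 (n = 3) without it, and the log2 difference turned from 0.43 to -0.46. Pcdh19 was at 239 CPM in that library, within the range of the unexposed group, and its stress-alone mean was 309 ± 57.0 CPM with it and 333 ± 39.6 without it.

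Both exposures together were then set against neither. Of the 3 comparisons with unexposed libraries, this had the fewest members and genes at an unadjusted edgeR p under 0.05, but not the fewest by overlap of the groups. No member was called (0%), 0 members had an unadjusted p under 0.05 with edgeR or DESeq2 and 1 with limma voom, beside 1.49% of genes with edgeR. Fitted values were higher in 33 members and lower in 32, with a median of 0.03 against 0.00 over all genes. Pcdh10 alone had groups that did not overlap, beside 2.62% of genes: it was at 57.6, 44.9, 84.3 and 81.6 CPM in unexposed and 88.1, 113, 91.9 and 84.5 CPM in both-exposures libraries. Its log2 difference was 0.49 ± 0.34 (edgeR adjusted p = 1.00), and the nearest libraries of the 2 groups were 84.3 and 84.5 CPM.

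The 3 smallest unadjusted p in this comparison belonged to Pcdhga2, Pcdh7 and Pcdhgb7. Pcdhga2 was at 59.3, 9.88, 16.4 and 13.9 CPM in unexposed and 1.44, 4.15, 13.7 and 16.7 CPM in both-exposures libraries, a log2 difference of -1.46 ± 0.77 that became -0.57 without unexposed library 1. Pcdh7 was at 72.2, 130, 125 and 123 CPM, a log2 difference of -0.56 ± 0.30, and -0.32 without unexposed 1. Pcdhgb7 was at 29.3, 59.6, 27.0 and 32.2 CPM in unexposed and 14.2, 16.1, 24.9 and 29.4 CPM in both-exposures libraries, a log2 difference of -0.80 ± 0.45, and -0.48 without unexposed 2. Pcdh7 therefore had a fitted value below 0 in each of the 3 exposed groups, which were all set against the same 4 unexposed libraries, of which unexposed 1 was the highest at 239 CPM.

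The interaction term asks whether the cypermethrin difference in stressed dams departed from that in unstressed dams. edgeR called 0 members and 0 genes (0%), and 2 members had an unadjusted p under 0.05, beside 4.7% of genes; DESeq2 found 2 and limma voom 1. For Pcdh9 the interaction was -0.82 ± 0.33 (edgeR adjusted p = 0.985): mean CPM was 225 ± 27.4 in unexposed, 312 ± 90.7 in cypermethrin-alone, 300.1 ± 79.9 in stress-alone and 236 ± 65.4 in both-exposures libraries. Each exposure alone thus had a higher mean than neither or both, with overlapping libraries. Summed glutamatergic markers had group means in the same order (5137, 5947, 5602 and 5175 CPM in these 4 groups). Their group medians did not (5186, 5894, 5074 and 4890 CPM). Stress-alone libraries 2, 3 and 4 had sums of 4877, 5271 and 4699 CPM. The 2 libraries highest in Pcdh9 were cypermethrin-alone 4 (444 CPM) and the library labelled stress-alone 1 (380 CPM). They were also the 2 highest in these markers (6538 and 7563 CPM). Next in the markers was both-exposures 1 (6424 CPM), with Pcdh9 at 261 CPM. Next in Pcdh9 was stress-alone 3 (342 CPM), with a marker sum of 5271 CPM. The part of these markers in the Pcdh9 values was not tested. For Pcdhga7 the interaction was -2.44 ± 1.00, and -0.99 without cypermethrin-alone 3. For Pcdh8 it was -1.53 ± 0.81, with 15.6, 5.54, 33.3 and 24.9 CPM in both-exposures libraries against 31.0, 45.0, 72.5 and 48.6 CPM in cypermethrin-alone libraries. For Pcdh11x it was -0.76 ± 0.63, and 0.13 without the library labelled stress-alone 1.

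Averaged over the other factor, 8 libraries stand against 8. For cypermethrin, edgeR called 0 members and 0 genes (0%); 2 members had an unadjusted p under 0.05, beside 4.59% of genes, as with DESeq2 and limma voom. Pcdhb10 had the largest difference, -2.73 ± 1.00 (edgeR adjusted p = 0.981), with 0 to 2.87 CPM in the 8 cypermethrin libraries, 4 of which were at 0, against 0.257 to 9.35 CPM in the 8 vehicle libraries, none at 0. Pcdha3 had 1.69 ± 0.71 (edgeR adjusted p = 0.981), with 1.74 to 30.2 CPM against 0 to 9.43 CPM. Pcdhb18, the next, had -0.73 ± 0.39, and -0.40 without stress-alone 3.

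For stress, edgeR called 0 members and 0 genes (0%), and 2 members had an unadjusted p under 0.05, beside 5.13% of genes; DESeq2 found 2 and limma voom 3. Pcdhb17 had the smallest unadjusted p of any member in any comparison, 0.00375, with a log2 difference of 1.19 ± 0.38 (edgeR adjusted p = 0.960), and both-exposures libraries at 58.9, 37.8, 24.1 and 32.4 CPM. Among the 8 stressed libraries 14.1 to 111 CPM were measured, and among the 8 unstressed ones 7.47 to 25.6. Pcdhga9 had 1.17 ± 0.42 (edgeR adjusted p = 0.960), with 27.1, 27.2, 31.7 and 48.3 CPM in stress-alone and 80.9, 18.7, 16.1 and 22.9 CPM in both-exposures libraries, against 2.92 to 32.0 CPM in the 8 unstressed libraries. Without both-exposures 1 this was 0.74. Pcdhgb8 had -0.74 ± 0.42, and -0.38 without cypermethrin-alone 4.

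**Figure D5:**
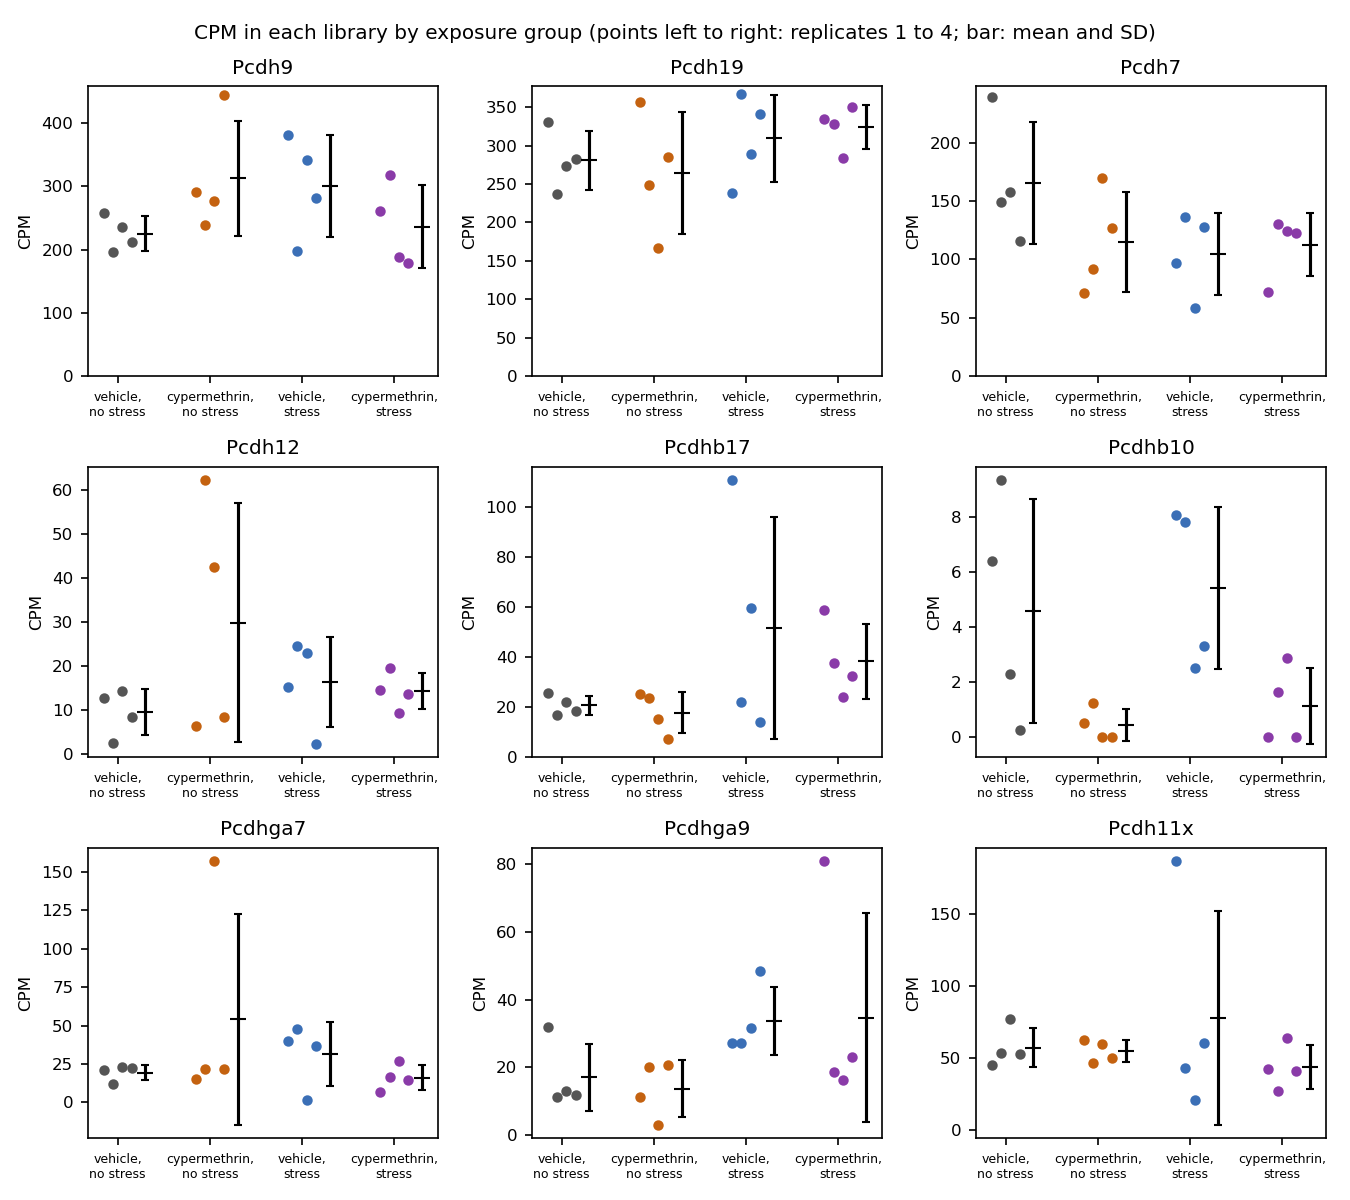
CPM of 9 protocadherin genes in every library, by exposure group (points from left to right are replicates 1 to 4; bars, mean and SD). A single library sets the high mean of Pcdhga7 in cypermethrin-alone (157 CPM), of Pcdhga9 in both-exposures (80.9 CPM) and of Pcdh11x in stress-alone libraries (187 CPM), whereas Pcdhb10 is at 0 in 4 of the 8 cypermethrin libraries.

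Genes that act on or with protocadherins were read from 2 lists. Of 19 genes of promoter choice and chromatin (CTCF, cohesin and its loaders and releasers, DNA methyltransferases, Smchd1 and others), 19 were tested and 0 called in any of the 6 comparisons by edgeR. In unstressed dams exposed to cypermethrin, the cohesin release factor Wapl had the smallest unadjusted p (log2 difference 0.58 ± 0.28), followed by the methyltransferase Dnmt3b (-1.88 ± 1.03). In stress-alone libraries the cohesin subunit Rad21 came first (-0.64 ± 0.24, unadjusted p = 0.0148), followed by the cohesin regulator Pds5a (0.28 ± 0.23), and in both-exposures libraries the cohesin subunit Stag1 (-0.45 ± 0.29) and Pds5b (0.27 ± 0.22). Median log2 differences of this list were 0.06, -0.01 and -0.06 in the 3 comparisons.

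Of 18 partners and effectors (the WAVE complex that protocadherin tails recruit, focal adhesion kinases, N-cadherin and others), 16 were tested and 0 called in any comparison by edgeR. The smallest unadjusted p belonged to Marcks (0.28 ± 0.14) and the focal adhesion kinase Ptk2 (0.36 ± 0.24) with cypermethrin alone, to N-cadherin Cdh2 (0.25 ± 0.18) and Taok2 (0.48 ± 0.35) with stress alone, and to the phosphatase Ppp1ca (0.59 ± 0.41) with both. None had an unadjusted p under 0.05 in these 3 comparisons. The median log2 differences were 0.17, 0.06 and 0.01, against 0.03, 0.01 and 0.00 over all genes tested.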

How the data were processed

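Raw gene counts of 16 libraries were used as deposited by the authors. Reads were aligned with STAR 2.5 to mm10, per the submitters' processing notes; RNA came from about 1000 captured cells per library and was made into libraries with the Nugen Trio RNAseq kit, per the labels' protocols. The counting tool, the strand setting and the gene annotation behind the counts: not given in the sources used here. Reads from overlapping or antisense genes, and from exons shared within a cluster, may therefore be lost or split.

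Genes were filtered with filterByExpr (minimum count 10), leaving 13224 of 24539, scaled by TMM and tested with edgeR 4.0.16 (R 4.3.3; glmQLFit, robust, 1 mean per group over all 16 libraries), with Benjamini-Hochberg adjustment over all genes tested and a threshold of 0.05. The standard error is the absolute log2 difference divided by the square root of F. CPM are counts scaled to the TMM-adjusted library size. DESeq2 1.42.0 and limma 3.58.1 (voom) were alternatives, with RLE scaling, library totals without TMM, no filter, the library code as a term, each library left out, only the groups compared, and, chosen after seeing the data, fits within each library code and lengths not shared within the table. A code in the libraries' descriptions splits them into 7 and 9; the labels do not say what it stands for. Exon lengths came from GENCODE vM21, matched by symbol for 68 members and by RefSeq start for 2. The edgeR script was tested on simulated data. Numbers within a group only follow the accessions, so no library is paired with another. Libraries came from separate litters, per the labels. Members and lists were chosen with earlier results of these data known. Named were all non-clustered genes, the 5 highest per kilobase and the C-type genes of each cluster, the 3 genes with the smallest unadjusted p in each comparison, the genes next to the filter and the 2 list genes with the smallest p, of which 1 is not reported here. Levels of further genes were named after their values were seen.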

Additional observations from a re-analysis of the deposited data

Results flagged for a closer look

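A library that lay far from the other 3 of its group was looked for in 27 quantities of the text (the 6 class sums and 21 genes) over 4 groups, 108 groups in all, by Dixon's ratio with the 95% critical value for 4 samples. It was met in 13. The critical value stands for 5% of unselected, independent groups. Here the clustered genes were picked by their unadjusted p in these data, and the class sums contain genes that were also looked at. The 13 of 108 therefore cannot be set against 5%.

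Of the class sums, beta genes were low in both-exposures 2 at 153 CPM, against 240 to 258 in the others. Gamma genes were high in unexposed 1 at 584 CPM, against 423 to 439. Delta-2 genes were low in the library labelled stress-alone 1 at 433 CPM, against 565 to 586.

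Of the non-clustered genes, Pcdh1 was high in the library labelled stress-alone 1 at 97.0 CPM, against 51.9 to 57.6. Pcdh15 was low in unexposed 4 at 11.3 CPM, against 18.2 to 18.4, and Pcdh7 was low in both-exposures 1 at 72.2 CPM, against 123 to 130.3.

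Clustered genes were looked at only where they had one of the 3 smallest unadjusted p of a comparison. These were Pcdha3, Pcdhb10, Pcdhb17, Pcdhb18, Pcdhga2, Pcdhga7, Pcdhga9, Pcdhgb7 and Pcdhgb8. Other clustered genes, Pcdhac2 among them, were not looked at. The 7 groups that met the criterion all belonged to the gamma genes of this selection, which does not show that the gamma cluster differs from the others. In unexposed 1, Pcdhga2 was at 59.3 CPM against 9.88 to 16.4, Pcdhga9 at 32.0 CPM against 11.2 to 13.1, and Pcdhgb8 at 54.2 CPM against 12.9 to 17.4. In unexposed 2, Pcdhgb7 was high at 59.6 CPM, against 27.0 to 32.2, and Pcdhga7 was low at 11.8 CPM, against 20.9 to 22.7. Pcdhga7 stood at 157 CPM in cypermethrin-alone 3, against 14.9 to 22.0, and Pcdhga9 at 80.9 CPM in both-exposures 1, against 16.1 to 22.9. What set these libraries apart was not tested.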

How the results depend on the processing

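No protocadherin gene was called under any of the 24 alternatives of the 3 comparisons with unexposed libraries or the 23 of the interaction and the 2 averaged comparisons, and the smallest adjusted p of a member over them was 0.457 (DESeq2, stress averaged over cypermethrin). Over 23 differences and 541 alternative values, 8 values of 5 differences changed sign. Within the first library code, cypermethrin alone gave -0.13 for Pcdhga7 and -0.23 for Pcdh12. Within the second, both exposures gave 0.0021 for Pcdhga2, stress alone -0.67 for Pcdh11x, and the interaction of Pcdh11x was 0.68. With limma voom, stress alone gave -0.092 for Pcdh11x. Leaving out each library in turn, Pcdh11x ranged from -0.46 to 0.75 in stress alone and from -1.08 to 0.13 in the interaction. In both, only leaving out the library labelled stress-alone 1 changed the sign. The cause of the other changes was not tested. Mean levels per kilobase depend on the length used. With bases that no other annotated gene shares, alpha went from 1.22 to 3.25 and gamma from 4.43 to 9.71 CPM. The 9.71 leaves out Pcdhga10, which had 0 such bases, whereas the 4.43 includes it. With bases that no other gene of the table shares, alpha and gamma went to 2.51 and 8.03. The divisor is shorter in both cases. No paired analysis was possible because the replicate numbers are in accession order and pair nothing. Between 6 and 25 of the 70 members had under 10 counts in a library, which limits what depth can show for the lowest alpha and beta genes.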
